A study of Mus musculus with 15 samples.

Results

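The 5 microRNAs (miRNAs) mmu-miR-2861, mmu-miR-1897-3p, mmu-miR-1897-5p, mmu-miR-2137 and mmu-miR-680 were examined in mouse liver, out of 696 mouse miRNAs on the array. They were chosen by their measured values, as entries of weakly supported annotation whose mean was lower in metformin-fed mice than in mice on the standard diet. Their difference between those 2 diets is therefore given as a description, without a test. All 5 were detected on all 15 arrays and belonged to the 178 miRNAs that were tested because they were detected on every array of at least 1 group. The arrays carry no grade of annotation confidence, so that side of the choice was not checked here.

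The mice were male B6C57/J animals aged 1 year at the start, housed in the same conditions and kept on their diet for the rest of their lives. The standard diet group (SD) ate AIN-93G chow ad libitum, the metformin group (Met) ate the same chow ad libitum with 0.1% metformin by weight, and the caloric restriction group (CR) received the chow at 40% restriction. Each group held 5 mice with 1 array each, and the livers are whole tissue, so fewer cells of a type and less RNA per cell cannot be told apart. Animals lie on 2 slides: slide 1 held SD mice 1 to 5 and Met mice 1 to 3, and slide 2 held Met mice 4 and 5 and all CR mice.

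miRNAs are short RNAs cut from a hairpin precursor and loaded into Argonaute proteins. Bases 2 to 8, the seed, pair with target mRNAs and guide their repression, so miRNAs that share a seed are grouped as a family. A hairpin can give a product from each arm, named 5p and 3p. Catalogues of miRNAs also hold entries with few supporting reads or without the clean ends that processing by DROSHA and DICER1 leaves, and such entries are called low-confidence. Of the members, miR-2861 has been studied in bone, where it was described as promoting osteoblast differentiation through the histone deacetylase HDAC5.

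RefSeq held a mature sequence for 4 of the 5 members. They are shown because base composition and seed are what the choice did not use, and the capitals mark the seed, bases 2 to 8.
mmu-miR-2861: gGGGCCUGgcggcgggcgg
mmu-miR-2137: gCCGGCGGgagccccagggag
mmu-miR-680: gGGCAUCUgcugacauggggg
mmu-miR-1897-3p: uCAACUCGuucuguccggugag

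The 4 seeds differ, and the members are thus no seed family. The seed of miR-2861 is shared with mmu-miR-3091-3p, which was not on the array, and the other 3 seeds occur in no other mature mouse sequence of RefSeq. In assembly GRCm38.p6, mature miR-2861 lies at chr2:32712819-32712837 on the minus strand, outside any other annotated gene. Mature miR-2137 lies at chrX:72992113-72992133 on the plus strand, inside Zfp185, a protein-coding gene. Mature miR-1897-3p lies at chr3:34638511-34638532 on the plus strand, inside Sox2ot, a long noncoding RNA gene that spans the locus of the transcription factor Sox2. miR-680 is encoded at 3 loci with the same mature sequence, at chr6:129691541-129691561 on the plus strand, chr12:35194849-35194869 on the minus strand and chrX:144297790-144297810 on the plus strand, none of them inside another gene. The array cannot separate the 3 loci.

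Each value below is a z-score: the natural log of a spot's signal, less the mean of all spots of that array and divided by their standard deviation, averaged over the 20 spots of a member. The values of one miRNA are compared between mice only, since different probes bind with different strength. A z-score of 0 stood for a mean signal of 139.4 in SD, 145.7 in Met and 139.4 in CR. The standard deviation of ln signal averaged 0.758, 0.744 and 0.705, so z-scores also depend on the scale of the array. Liver identity was checked first. miR-122-5p, the dominant hepatocyte miRNA, had z-scores from 5.77 to 6.40, and miR-192-5p and miR-194-5p were detected on 15 arrays. The neuronal miR-124-3p and miR-9-5p were detected on 0 arrays. The muscle miRNAs miR-1a-3p, miR-133a-3p and miR-206-3p were each detected on 1 array, that of CR mouse 5, where miR-1a-3p reached 0.852 and miR-133a-3p 1.41 against medians of -0.286 and -0.319. Mean z-scores in CR, the CR contrast and its relation to base composition are given with and without that mouse; probe-level, ratio, slide and other-scaling values include it.

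Of the 5 members, miR-2861 had the Met minus SD difference of the greatest size. In SD mice 1 to 5 its z-scores were 0.983, 1.45, 1.40, 1.21 and 0.877. In Met mice 1 to 5 they were 0.729, 0.841, 0.776, 0.807 and 0.755. In CR mice 1 to 5 they were 0.932, 1.01, 1.102, 0.842 and 0.799. All Met mice lay below all SD mice, while the CR values overlapped both groups. The means were 1.18 ± 0.253 (s.d., n = 5) in SD, 0.782 ± 0.0441 in Met and 0.938 ± 0.124 in CR, a Met minus SD difference of -0.403. Without CR mouse 5 the CR mean was 0.972 ± 0.111 (s.d., n = 4). The CR mice then lay only just above the Met mice, with CR mouse 4 at 0.8419 and Met mouse 2 at 0.8413. As a ratio to local background, CR and Met mice still overlapped without CR mouse 5. Only 3 of the 178 tested miRNAs, or 1.69%, had all Met arrays below all SD arrays, and these were miR-2861, miR-680 and miR-705. Since the choice rested on the same contrast, nothing is read from that share.

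On the linear scale the signal of miR-2861 averaged 347.7 in SD, 260.8 in Met and 269.8 in CR, against a local background of 61.3, 64.1 and 62.9. The ratio of probe to local background was 4.81, 6.43, 7.16, 5.61 and 4.45 in SD mice 1 to 5. It was 3.95, 4.25, 4.06, 4.08 and 4.04 in Met mice, and 4.60, 4.42, 4.33, 3.90 and 4.23 in CR mice. SD mice 2, 3 and 4 were highest, and SD mouse 5 was nearest to the other diets. The Met mean of the ratio, 4.08 ± 0.110 (s.d., n = 5), lay below the SD mean of 5.69 ± 1.12, a change of -28.4%, and the spread among SD mice was the widest of the 3 diets. Both probes showed the pattern. For A_54_P00004773 the mean ratio was 5.66 in SD, 3.94 in Met and 4.15 in CR, and for A_54_P00004774 it was 5.72, 4.21 and 4.43. On each probe the Met and SD ratios did not overlap. The CR ratios overlapped those of both other diets.

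**Figure D1:**
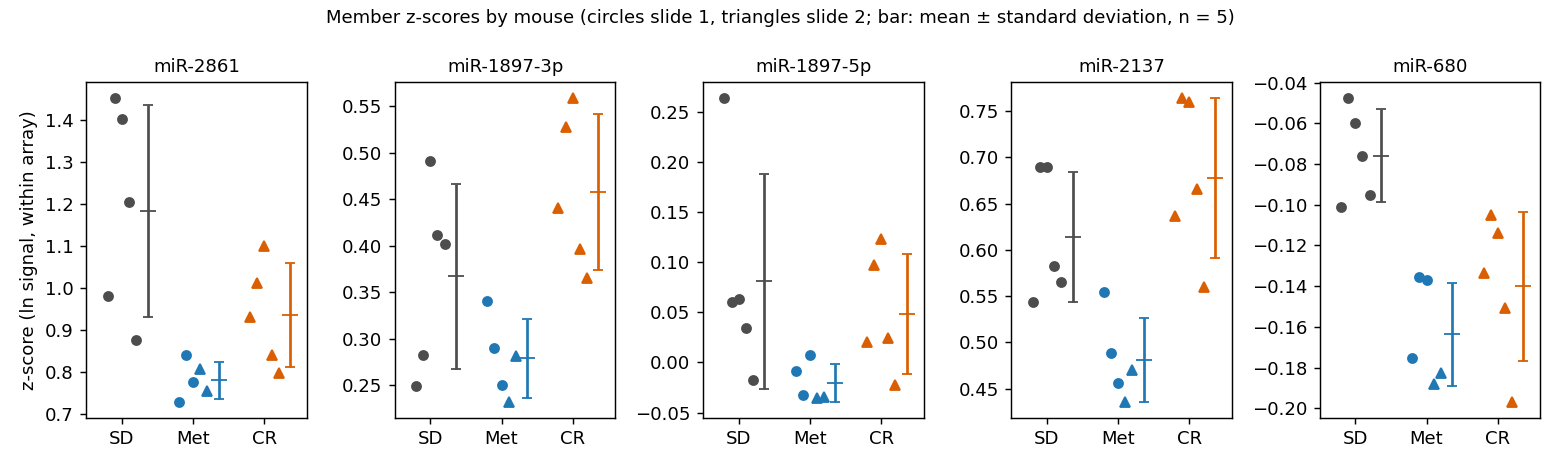
z-scores (vertical axis, own scale per panel) of the 5 members in each mouse by diet; circles are arrays of slide 1, triangles arrays of slide 2, and bars the mean ± standard deviation of 5 mice. The Met points of miR-2861 and miR-680 lie below all SD points, and the other 3 members overlap between those diets.

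miR-680 was the second member whose Met and SD mice did not overlap, at a much smaller difference. Its z-scores were -0.101, -0.0474, -0.0597, -0.0758 and -0.0950 in SD mice 1 to 5. They were -0.175, -0.136, -0.137, -0.188 and -0.183 in Met mice, and -0.134, -0.105, -0.114, -0.151 and -0.197 in CR mice. Every Met mouse and every CR mouse lay below every SD mouse, and Met and CR overlapped. The means were -0.0758 ± 0.0228 (s.d., n = 5) in SD, -0.164 ± 0.0254 in Met and -0.140 ± 0.0365 in CR, or -0.126 ± 0.0205 (n = 4) without CR mouse 5, still without overlap with SD. The CR values are set beside the Met values only for reading, because both are compared with the same SD mice. CR and SD mice also lay on different slides, so diet and slide cannot be told apart between them.

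The unscaled signal of miR-680 did not separate the diets. It was 126.2, 128.8, 134.1, 136.3 and 133.4 in SD mice 1 to 5 and 125.5, 134.4, 131.1, 128.0 and 126.6 in Met mice. The negative-control spots of the same arrays, which bind no miRNA, averaged 107.3 ± 3.68 (s.d., n = 5) in SD, 113.3 ± 2.17 in Met and 111.8 ± 3.05 in CR. Above the negative controls, miR-680 signal was 24.4 ± 1.99 in SD, 15.8 ± 2.33 in Met and 14.5 ± 1.91 in CR. On that scale, too, all Met and all CR mice lay below all SD mice. The ratio to local background averaged 2.14 ± 0.0683 in SD, 2.03 ± 0.0239 in Met and 1.99 ± 0.0495 in CR, and again neither Met nor CR overlapped SD. The part of the control level in the miR-680 difference was not tested. Of its 20 spots, the software marked 17, 20, 20, 11 and 3 as well above background in SD mice 1 to 5, against 1, 3, 4, 2 and 4 in Met mice and 6, 9, 2, 5 and 1 in CR mice. Every other member had at least 19 of 20 spots so marked on every array.

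The 4 probes of miR-680, with 5 spots each, were read separately. On A_54_P1933, A_54_P1934 and A_54_P1935 the z-scores of all Met mice and all CR mice lay below all SD mice. On A_54_P1936, 4 of 5 Met mice and 2 of 5 CR mice did. The Met minus SD difference in z-score was -0.0950, -0.0738, -0.103 and -0.0796 on these probes in order. Probe by probe, the ratio to local background of SD and Met mice did not overlap on A_54_P1935, with means of 2.15 and 1.99, and overlapped on the other 3 probes.

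**Figure D2:**
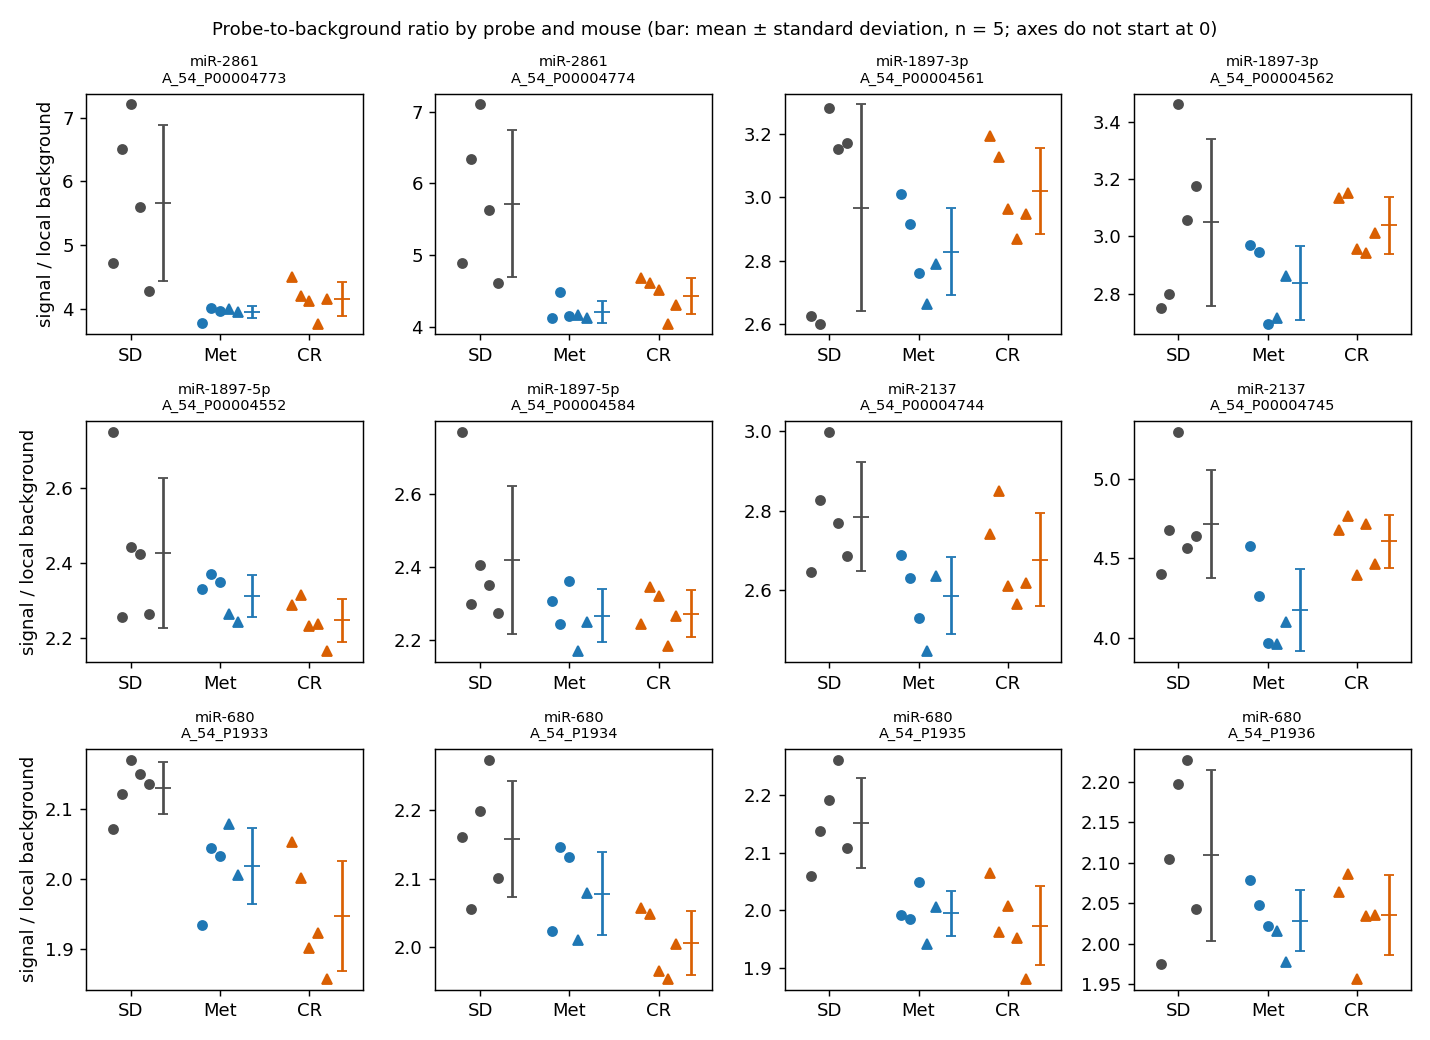
Ratio of probe signal to local background (vertical axis, own scale per panel, not from 0) for each of the 12 probes by diet and mouse; circles are slide 1, triangles slide 2, and bars the mean ± standard deviation of 5 mice. Both miR-2861 probes show SD mice spread upward from the Met mice, and the miR-680 probes stay close to a ratio of 2.

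miR-2137 was lower in most Met mice. Its z-scores were 0.543, 0.690, 0.689, 0.583 and 0.565 in SD mice 1 to 5, then 0.554, 0.489, 0.456, 0.435 and 0.470 in Met mice and 0.636, 0.765, 0.760, 0.665 and 0.560 in CR mice. Of the Met mice, 4 of 5 lay below all SD mice, and all Met mice lay below all CR mice. The means were 0.614 ± 0.0702 (s.d., n = 5) in SD, 0.481 ± 0.0455 in Met and 0.677 ± 0.0865 in CR, or 0.706 ± 0.0654 (n = 4) without CR mouse 5. As a ratio to local background the means were 3.75 ± 0.325, 3.36 ± 0.161 and 3.68 ± 0.150. CR and Met mice overlapped in that ratio, and did not in signal above the negative controls. Its 2 probes read at different levels, so each was compared only with itself. On A_54_P00004744 the z-score averaged 0.280 in SD, 0.161 in Met and 0.294 in CR, and on A_54_P00004745 it averaged 0.948, 0.801 and 1.06. Met and SD mice did not overlap on the former and overlapped on the latter.

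The arms of the miR-1897 hairpin had overlapping SD and Met values. For miR-1897-3p the z-scores were 0.250, 0.282, 0.490, 0.412 and 0.402 in SD mice 1 to 5, then 0.341, 0.290, 0.250, 0.232 and 0.282 in Met mice and 0.441, 0.527, 0.559, 0.397 and 0.365 in CR mice. SD mice 1 and 2 lay within the Met range, and all CR mice lay above all Met mice. The means were 0.367 ± 0.0992 (s.d., n = 5) in SD, 0.279 ± 0.0420 in Met and 0.458 ± 0.0833 in CR, or 0.481 ± 0.0753 (n = 4) without CR mouse 5. The ratio to local background averaged 3.01, 2.83 and 3.03. On that scale, and for signal above the negative controls, CR and Met mice overlapped.

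For miR-1897-5p the z-scores were 0.264, 0.0601, 0.0633, 0.0339 and -0.0179 in SD mice 1 to 5, then -0.00842, -0.0321, 0.00736, -0.0359 and -0.0343 in Met mice and 0.0200, 0.0967, 0.124, 0.0241 and -0.0229 in CR mice. SD mouse 1 stood apart from the other SD mice on both probes. The means were 0.0807 ± 0.108 (s.d., n = 5) in SD, -0.0207 ± 0.0193 in Met and 0.0483 ± 0.0601 in CR, or 0.0661 ± 0.0521 (n = 4) without CR mouse 5, when CR no longer overlapped Met. Without SD mouse 1 the Met minus SD difference was -0.0555, against -0.101 with it. The ratio to local background averaged 2.42, 2.29 and 2.26, and on that scale the CR mean was the lowest while the 3 groups overlapped. Across the 15 arrays the arms of the hairpin had a Pearson correlation of 0.198, which was -0.108 for the deviations from the group means.

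**Figure D3:**
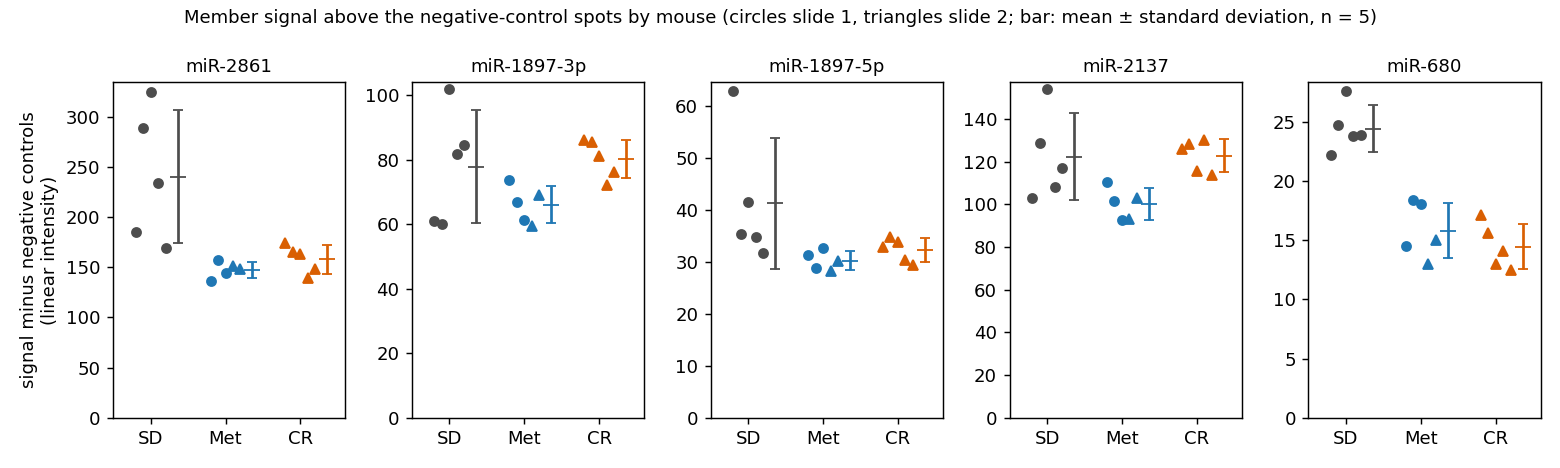
Signal of each member above the negative-control spots (vertical axis, linear intensity from 0) in each mouse by diet; circles are slide 1, triangles slide 2, and bars the mean ± standard deviation of 5 mice. miR-2861 averages 240.4 in SD and 147.5 in Met, and miR-680 24.4 and 15.8.

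The error over the spots of an array was compared with the spread between mice. The median standard error over the spots of an array was 0.0130 in z-score for miR-2861, against a standard deviation between mice of 0.0441 to 0.253. For miR-680 the corresponding values were 0.0127 and 0.0228 to 0.0365. For miR-2137 the standard error was 0.0820, within the 0.0455 to 0.0865 between mice, and it also held the difference between its probes. Between single spots the median standard deviation on an array was 0.0580 for miR-2861, 0.0568 for miR-680 and 0.350 for miR-2137.

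Slides were compared next. On slide 1 alone, with 5 SD and 3 Met mice, the Met minus SD difference was -0.403 for miR-2861 and -0.0735 for miR-680, with no overlap for either. It was -0.0734 for miR-1897-3p, -0.0918 for miR-1897-5p and -0.114 for miR-2137, with overlap. Met mice of slide 2 minus those of slide 1 gave -0.00117 (miR-2861) to -0.0471 (miR-2137) in z-score, the other 3 members lying between. For miR-680 this slide difference was -0.0361, beside a CR minus SD difference of -0.0643. SD and CR mice shared no slide, so differences between them cannot be told apart from those between slides. The Met minus SD values describe the contrast that chose the members.

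Whether the members also differed under caloric restriction was tested in a contrast other than that of the choice, CR against the mean of SD and Met. This contrast still holds the SD and Met values that the choice used. With equal groups and equal spread its correlation with the Met minus SD difference is 0. The spread was not equal for miR-2861, both miR-1897 arms and miR-2137, whose SD mice varied more than their Met mice. For miR-2137 the standard deviation was 0.0702 in SD and 0.0455 in Met. The correlation need not be 0 for these members. A miRNA met the criteria with a p of at most 0.05, a Benjamini-Hochberg adjusted p of at most 0.3 and a Z ratio of at least 1.5 in size, the Z ratio being the difference divided by the standard deviation of the differences of all 696 miRNAs. That standard deviation was 0.158 for the CR contrast and 0.0609 for Met minus SD. A Z ratio of 1.5 thus asks for a larger difference in the CR contrast. By limma, 35 of the 178 tested miRNAs (19.7%) met them, 7 of these (3.93% of those tested) with CR higher, and 92 (51.7%) had an unadjusted p of 0.05 or less. Of the 5 members, 0 met the criteria, also with the test of the study's methods in place of limma, and 2 had an unadjusted p of 0.05 or less.

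These 2 were miR-1897-3p and miR-2137. miR-1897-3p was 0.135 higher in CR (95% interval 0.0322 to 0.237, limma's adjusted p = 0.0348), with a Z ratio of 0.853. miR-2137 was 0.130 higher (0.0260 to 0.234, adjusted p = 0.0422), with a Z ratio of 0.822. Both Z ratios were below the limit. With the slide as a block the differences were 0.164 and 0.167, with an adjusted p of 0.176 for each by limma. CR and SD mice overlapped for both miRNAs, at CR minus SD differences of 0.0905 and 0.0632, so the contrast rested in part on the low Met values for which the members were chosen. Without CR mouse 5 the Z ratios were 0.867 and 0.874, with an adjusted p of 0.0166 and 0.0142 by limma. As ratios to local background the differences were 0.0571 and 0.0266 on the log2 scale, with an adjusted p of 0.507 and 0.774, and with arrays set to the 75th percentile of all probes the adjusted p was 0.314 and 0.468, all by limma.

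The remaining 3 members had intervals that spanned 0. The difference was -0.0454 for miR-2861 (95% interval -0.235 to 0.144, limma's adjusted p = 0.689), 0.0183 for miR-1897-5p (-0.0623 to 0.0989, adjusted p = 0.701) and -0.0203 for miR-680 (-0.0550 to 0.0144, adjusted p = 0.321). The interval of miR-2861 is wide enough to hold differences in either direction. Without CR mouse 5 the Z ratio was -0.0584 for miR-2861, 0.198 for miR-1897-5p and -0.0333 for miR-680, against -0.287, 0.116 and -0.129 with it, and limma's adjusted p was 0.923, 0.475 and 0.749. For miR-680 the difference was -0.0652 as a ratio to local background and -0.0494 with the 75th percentile of all probes, on the log2 scale, with an adjusted p of 0.0355 and 0.0358 by limma and Z ratios of -0.352 and -0.266. The CR calls depended on how arrays were scaled. With arrays set to the 75th percentile of the probes detected on all arrays, 4 members met the criteria, as did 121 of the 178 tested miRNAs (68.0%). With quantile normalization 2 members did, as did 46 of the 178 (25.8%). The former scaling moved the median difference of all tested miRNAs to 0.348 on the log2 scale, and relative to that median the members lay at -0.0855 (miR-2861), 0.144 (miR-1897-3p), 0.0467 (miR-1897-5p), 0.124 (miR-2137) and 0.0195 (miR-680).

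**Figure D4:**
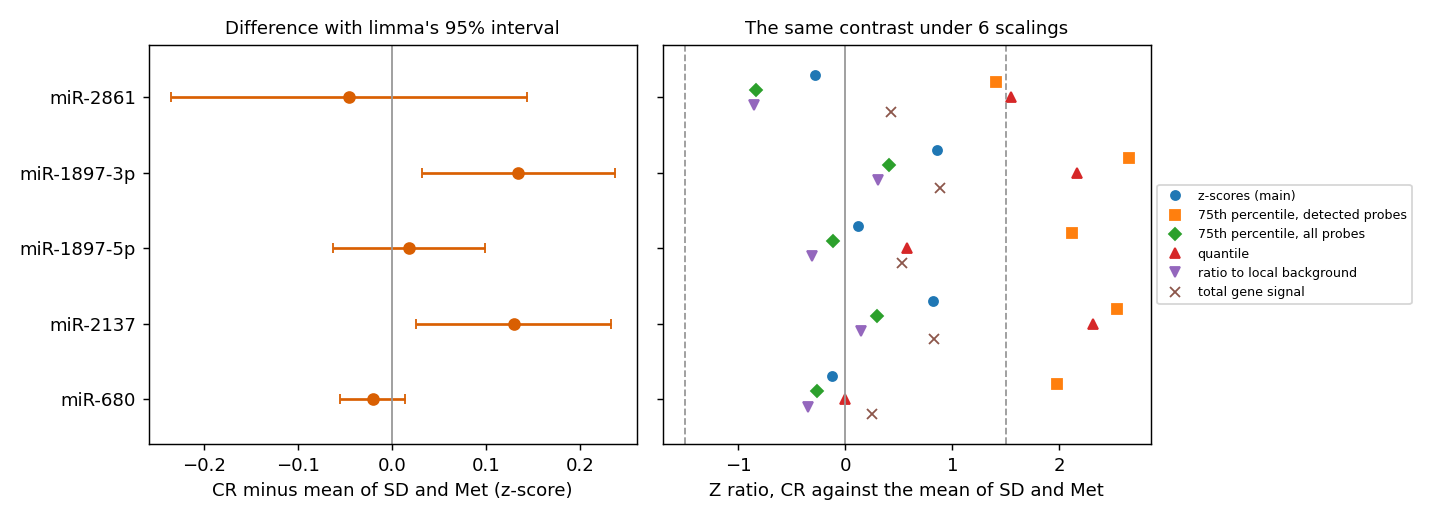
Left, difference in z-score of CR from the mean of SD and Met for each member, with limma's 95% interval. Right, Z ratio of the same contrast under 6 scalings of the arrays, with dashed lines at the limit of 1.5 in size; the members of the left panel share its rows. The intervals of miR-1897-3p and miR-2137 lie above 0, and the scaling moves all members along the axis.

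The base composition of the members was described from the sequences. G and C made up 94.7% of mature miR-2861, the highest share of the 134 tested miRNAs that matched a RefSeq sequence by name, and 85.7% of miR-2137, the next highest. The share was 66.7% in miR-680 and 54.5% in miR-1897-3p, against a median of 47.8% over the 134. As 44 of the 134 had at least the share of miR-1897-3p, a high share was not common to the members. The limit of 65% used next lies just under the share of miR-680. Among the 130 matched non-members, the 10 with at least 65% G and C had a median Met minus SD of -0.0475 in z-score, with 9 of 10 lower in Met. The 120 with a smaller share had a median of 0.0147, with 39 lower in Met. The differences ranged from -0.112 to 0.00949 in the 10 and from -0.504 to 0.232 in the 120. In the CR contrast, 10 of the 10 were higher in CR, with a median of 0.0430, against 39 of the 120 with a median of -0.0390. The mean z-scores of the 10 ran from -0.221 to 2.71, so some lay near the floor. The untested entries numbered within 10 of a member were also all higher in CR, by 0.0101 to 0.0467. The part of signal level and array scale in the values of the 10 was not tested. Over the 130 miRNAs the Spearman correlation of the G and C share was -0.202 with Met minus SD and 0.512 with the CR contrast. Without CR mouse 5, 10 of the 10 and 38 of the 120 were higher in CR, with medians of 0.0546 and -0.0476, and the correlation with the CR contrast was 0.543. These are correlations across miRNAs, which share arrays and the z-score scaling, and are given as a description.

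**Figure D5:**
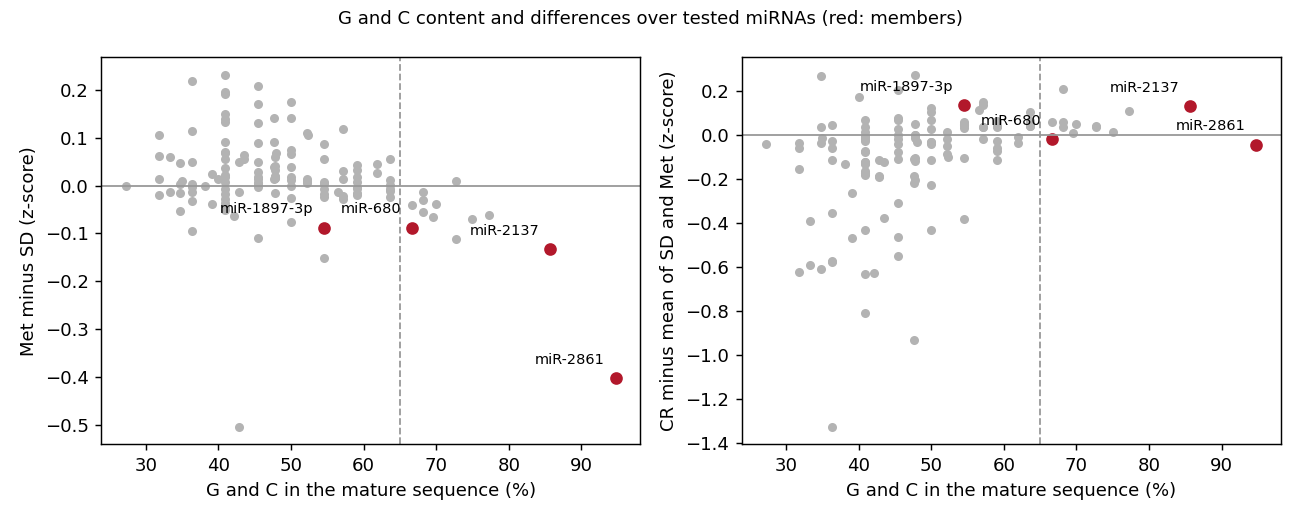
G and C content of the mature sequence (horizontal axis, %) against Met minus SD (left) and CR minus the mean of SD and Met (right), both in z-score, for the 134 tested miRNAs with a RefSeq sequence; red points are members and the dashed line is at 65%. miR-2861 and miR-2137 lie at the far right, at 94.7% and 85.7%.

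The miRNAs whose profile over the 15 arrays was most like each member were found by Pearson correlation among 177 tested miRNAs. For miR-2861 they were miR-2132_v15.0 (0.942), miR-705 (0.877) and miR-680 (0.876), and for miR-680 they were miR-2861, miR-705 (0.862) and miR-2132_v15.0 (0.824). For miR-1897-3p they were miR-2133_v15.0 (0.884), miR-3072-5p (0.845) and miR-139-3p (0.839). For miR-1897-5p they were miR-2145_v16.0 (0.852), miR-721 (0.834) and miR-320-3p (0.827). For miR-2137 they were miR-139-3p (0.861), miR-1897-3p (0.831) and miR-455-3p (0.807). The members were chosen for lower values in Met, so correlations over all 15 arrays hold that shared group difference. For deviations from the group means, the correlations of these pairs ran from 0.642 to 0.898. The value was 0.705 for miR-2861 with miR-680 and 0.644 for miR-2137 with miR-1897-3p. Within the SD mice alone, miR-2861, miR-680 and miR-2137 had pairwise correlations of 0.921 to 0.962 over 5 arrays. miR-1897-5p had negative ones with each of the other 4, from -0.642 to -0.157. SD mouse 1 was highest for miR-1897-5p, at 0.264, and lowest for miR-1897-3p, miR-2137 and miR-680. Among SD mice 2 to 5, mouse 5 was lowest for miR-1897-5p and also for miR-2861, miR-2137 and miR-680. Correlations without SD mouse 1 were not computed. All values of an array share its scaling, and the points share 15 arrays.

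miRNA numbers follow the order of entry, and the entries numbered within 10 of the members gave 51 miRNAs on the array, of which 18 were tested. Met was lower than SD in 15 of the 18, with a median Met minus SD of -0.0819 in z-score, against 78 of all 178 tested miRNAs with a median of 0.00838. By member, no neighbour of miR-2861 was on the array. The 6 tested neighbours of miR-1897 had a median of -0.00964, the 3 of miR-680 one of -0.0858 and the 9 of miR-2137 one of -0.105. The names of these 9 all carry a version mark, as in miR-2132_v15.0, and 7 of the 9 were lower in Met. In none of the 18 did all Met mice lie below all SD mice. The lowest was miR-2132_v15.0 at -0.699 and the highest miR-2140_v15.0 at 0.143. Among all tested miRNAs ordered by Met minus SD from the lowest, the members stood at places 3 (miR-2861), 13 (miR-2137), 17 (miR-1897-5p), 21 (miR-1897-3p) and 22 (miR-680). That order uses the contrast by which the members were chosen, so nothing is read from their places.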

How the data were processed

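Liver RNA of 5 SD, 5 Met and 5 CR mice was run on 1-color Agilent mouse miRNA arrays after Cy3 labeling. Per the labels and the file headers, images were read with Feature Extraction 11.5.1.1, and the annotation was mm9. The authors deposited the linear intensity of spots and of the background around them, with arrays not scaled to each other, with software flags of 0 or 1 for detection, outliers and spots well above background. The authors also deposited a table of scores. These equaled z-scores recomputed here from ln median signals within each array, controls included and background kept, within 0.0005.

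These z-scores were used throughout. Without outlier spots, spots were averaged per probe and probes per miRNA. Groups came from the sample labels. The members and lists were chosen with earlier results of these data known. Genes were named by a fixed rule: the 5 members with every probe, the 3 miRNAs most correlated with each, and the lowest and highest numbering neighbour; miR-705 was named after its values were seen, as the third miRNA with all Met arrays below all SD arrays. The contrast of CR against the mean of SD and Met was fitted over 178 miRNAs with limma 3.58.1 in R 4.3.3, with variances that follow the mean and Benjamini-Hochberg adjustment. The limits were those of the study's methods. The study's z-test is pairwise, and the alternative here was a z-test of the contrast of CR against the mean of SD and Met. In 10 runs on simulated data with 178 miRNAs, a median of 37.5 of 40 miRNAs changed by 0.4 was recovered, with 2.5 false calls. The greatest CR difference of a member was 0.135, so the runs do not show how often changes of that size are found. The number of arrays limits the precision. Mature sequences and loci came from RefSeq, GRCm38.p6, matched by name for 542 of 696 miRNAs. Python 3.11.15, numpy 2.4.6, pandas 2.3.3 and matplotlib 3.10.9 were used. Tried alternatives were other scalings, filters, probe rules, a replicate block, a slide block, single slides and leaving out each mouse.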

Additional observations from a re-analysis of the deposited data

Results flagged for a closer look

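One value stood far from its group. miR-1897-5p had a z-score of 0.264 in SD mouse 1, and the gap to the next SD mouse was 0.712 of the range of the group. This was the only such value among the 15 sets of 5 mice checked, and chance marks about 1 in 20 such sets. Without SD mouse 1 the Z ratio of miR-1897-5p in the CR contrast was 0.258, against 0.116 with it, and the Met minus SD difference was -0.0555, against -0.101.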

How the results depend on the processing

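The count of tested miRNAs that met the criteria in the CR contrast, 35, was 121 with arrays set to the 75th percentile of the probes detected on all arrays (below, detected probes), 46 with quantile normalization, 20 with the software's total gene signal, and 12 on slide 2 alone for CR against Met. The count of members, 0, was 4 under the same scaling (miR-1897-3p, miR-1897-5p, miR-2137, miR-680) and 2 after quantile normalization (miR-1897-3p, miR-2137); the cause was not tested. Leaving out each mouse gave 29 to 36 tested miRNAs and 0 members. The Z ratio of miR-2861 changed sign to 1.41 with the 75th percentile of detected probes, 1.55 with quantile normalization, 0.376 with z-scores over detected miRNAs, 0.430 with total gene signal and 0.937 on slide 2. That of miR-680 changed sign to 1.98, 0.364 and 0.245 with the same settings apart from quantile normalization, 0.0499 with a slide block and 0.271 on slide 2. That of miR-1897-5p became -0.120 with the 75th percentile of all probes and -0.314 as a ratio to local background, and ranged from -0.00416 (without CR mouse 3) to 0.258 (without SD mouse 1) when single mice were left out. The replicate block gave 35 tested miRNAs and 0 members and changed no other call; mice of the same number did not deviate together (median correlation -0.115, above 0.1 in 4 of 15 pairs). The members were chosen on Met minus SD in these same arrays, so nothing is read from its sign. That difference, whose Z ratios use another divisor than the CR contrast, stayed negative for each member under every setting run. Its Z ratio moved from -6.62 to -1.54 for miR-2861 and from -2.19 to -0.735 for miR-2137 with total gene signal, and from -1.44 to -0.390 for miR-680 with the 75th percentile of detected probes. For miR-1897-3p it moved from -1.45 to -0.539 and for miR-1897-5p from -1.66 to -0.650 with the latter, and to -0.602 and -0.991 with total gene signal. Leaving out single mice gave -1.96 to -0.901 for miR-1897-3p (lowest in size without SD mouse 3) and -1.90 to -0.924 for miR-1897-5p (without SD mouse 1). The signal of miR-680 was close to that of the negative controls.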
